A study of Drosophila melanogaster with 136 samples.

Results

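Glutamate is the main excitatory transmitter of the fly neuromuscular junction, whereas in the fly brain it works beside acetylcholine, the main excitatory transmitter there. At the larval junction the muscle builds a glutamate-gated cation channel from GluRIIC, GluRIID and GluRIIE together with either GluRIIA or GluRIIB, so that GluRIIA and GluRIIB compete for a place in the receptor. Neurons carry other families: GluRIA and GluRIB belong to the AMPA-type subunits, Nmdar1 and Nmdar2 form NMDA receptors that have been linked to memory, and mGluR is a G protein-coupled receptor that is found on motor neuron terminals at the junction. These 10 glutamate receptor genes were followed by symbol through the annotation of the Affymetrix Drosophila Genome 2 array. Probe sets were listed for 9 of the 10, through 11 of the 18769 probe sets analysed, which name 11981 genes in all. GluRIIC was not listed and was not analysed here. GluRIIA was read by probe set 1630710_at, GluRIIB by 1625654_at, GluRIID by 1631710_at, GluRIIE by 1638780_at, GluRIA by 1633583_at, Nmdar1 by 1641697_at and mGluR by 1639492_at. GluRIB had 1636209_at and 1631075_at, and Nmdar2 had 1636617_a_at and 1640464_at, and the brighter probe set, named first, stood for each gene.

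The series held 34 groups of 4 arrays. 1 group was the S2 cell line at passage 5. The others profiled wild-type Drosophila melanogaster of the Canton-S strain, each array from pooled animals. Adults were 7 days old and of both sexes, with the following exceptions. Ovary (30 females an array) and spermatheca (60 females) came from females alone, and testis and ejaculatory duct (60 males) from males alone. The label of the accessory gland, an organ of males, gives 25 flies of each sex. The larval groups came from feeding larvae in their last instar, with 2 wandering-stage groups, tubule and fat body. Of these only the tubule was compared here, and both entered the patterns over all 34 groups. The neural groups were the adult brain without the ganglia or eyes (60 flies of each sex an array), the adult thoracoabdominal ganglion, which is the ventral nerve cord (100 of each sex), the head capsule with brain and eyes (50 of each sex), the eye with much adherent cuticle (30 of each sex), and the larval CNS, which held brain and ganglia together (100 larvae). The groups rich in muscle were thoracic muscle (50 of each sex), the adult carcass, labelled as abdominal cuticle (25 of each sex), the heart with adherent tissue such as fat body (15 of each sex), the crop (40 of each sex), the hindgut (60 of each sex) and the larval carcass, which was what remained once the other organs had been taken out (30 larvae). The references were the whole fly (12 of each sex) and the whole larva (30 larvae). Heart and eye RNA was labelled with a different kit (IVT-Express) from that of most groups, and for those groups kit and tissue cannot be told apart. No number of amplification rounds was recorded for heart, eye or larval trachea.

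A signal below is the deposited intensity of 1 probe set on 1 array, scaled to a common trimmed mean of 100. Signals of different probe sets cannot be set against each other, so each gene was compared only with itself. Folds were computed on log2(signal + 10) with limma, and a gene was called where its Benjamini-Hochberg adjusted p was below 0.05 and the change was at least 2-fold; the pseudocount shrinks folds of weak signals. A gene was tested where its mean signal reached the 40th percentile of all probe sets, which lay between 2.99 and 11.8 over the groups, in at least 1 of the 2 groups. All comparisons with the whole fly share its 4 arrays, as those with the whole larva share theirs. A tissue's fold reflects both how many of its cells carry the gene and how much RNA each holds, and bulk arrays cannot tell the 2 apart.

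The labelled tissues were checked against marker lists. The 9 neuron markers measured were all called higher in brain and in ganglion than in whole fly, and 8 of 9 in larval CNS than in whole larva; the 7 muscle markers shared by both stages were called lower in all 3. Of those 7 muscle markers, 7 were called higher in adult carcass, 7 in crop, 3 in hindgut and 2 in heart than in whole fly, and 5 in larval carcass than in whole larva. Thoracic muscle array 4 went against its label: its 5 flight and leg muscle markers summed to 25.2, against 32196 to 52108 on arrays 1 to 3, while its 3 spermatheca markers summed to 22270, against 13.5 to 53.8 on the others. The redone mated spermatheca array 2 was the reverse: its flight and leg muscle markers summed to 65051, against 39.4 to 65.4 on the other arrays of its group, and its spermatheca markers to 19.96, against 18549 to 23193. The labels were kept, and whether the arrays were exchanged was not tested. Comparisons of either group with another are given with and without its array in doubt. Patterns over all 34 groups used every array. On the 4 adult trachea arrays the 9 neuron markers summed to 2141, 639, 2272 and 134. No 2 arrays were identical.

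In the adult nervous system the signal of GluRIA, Nmdar1 and mGluR stood far above that of the whole fly. GluRIA gave 255, 272, 287 and 248 in adult brain and 201, 181, 202 and 201 in ganglion, against 2.21, 7.25, 0.85 and 1.08 in whole fly. The whole-fly arrays were at background, and every neural array lay far above them. GluRIA averaged 265 ± 17.3 in brain and 2.85 ± 2.99 in whole fly (SD, n = 4 each), a log2 fold of 4.45 ± 0.15 (SE, limma adjusted p = 3.2e-10); in ganglion the log2 fold was 4.03. Nmdar1, the obligatory subunit of fly NMDA receptors, gave 262, 339, 364 and 321 in brain and 317, 316, 313 and 331 in ganglion, against 6.53, 5.92, 9.03 and 9.72 in whole fly. Its groups were again wholly apart, with log2 folds of 4.21 ± 0.12 in brain and 4.21 ± 0.10 in ganglion over whole fly. mGluR gave 72.9, 72.3, 80.7 and 63.4 in brain and 68.6, 24.6, 44.0 and 40.6 in ganglion, against 2.57, 7.51, 1.08 and 8.06 in whole fly. The ganglion arrays were widely spread, with array 1 alone at the brain's level, and the log2 folds were 2.502 ± 0.16 in brain and 1.85 ± 0.25 in ganglion. These 3 were the called members among 9 tested in brain and in ganglion, all higher; 19.3% of all probe sets tested were called higher in brain and 17.6% in ganglion, and over all probe sets the median log2 fold was -0.11 and -0.10.

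Between brain and ganglion none of 9 members was called by limma, while 4.01% of all probe sets were. At adjusted p alone GluRIA, GluRIIA and mGluR passed, and the log2 folds of brain over ganglion were 0.42 for GluRIA and 0.65 for mGluR. For GluRIA every brain array lay above every ganglion array, whereas for mGluR the arrays overlapped. For Nmdar1 the 95% interval of the log2 fold ran from -0.23 to 0.23, so a difference of 2-fold lay outside it.

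The head, which holds the brain among other tissues, gave intermediate signals. GluRIA gave 43.8, 38.5, 40.5 and 49.1 in head and Nmdar1 gave 60.1, 79.4, 47.9 and 81.7, all above the whole-fly arrays and all below the brain arrays. Both were called higher in head than in whole fly, with log2 folds of 2.07 ± 0.15 and 2.10 ± 0.16, 2 of 9 members against 14.5% of all probe sets called higher. mGluR averaged 13.1 ± 6.46 in head and 4.80 ± 3.50 in whole fly, a log2 fold of 0.64 that was not called. In the eye no member was called among 7 tested, against 43.3% of all probe sets called in either direction: GluRIA gave 5.59, 4.41, 11.2 and 12.2 in eye and Nmdar1 gave 17.9, 11.5, 8.26 and 11.03, both overlapping the whole fly. There 5 of 8 neuron markers tested were called higher than in whole fly, with a median log2 fold of 1.95, and the eye-enriched kainate-type receptor Ekar had a log2 fold of 4.90 (825 in eye, 17.9 in whole fly).

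**Figure D1:**
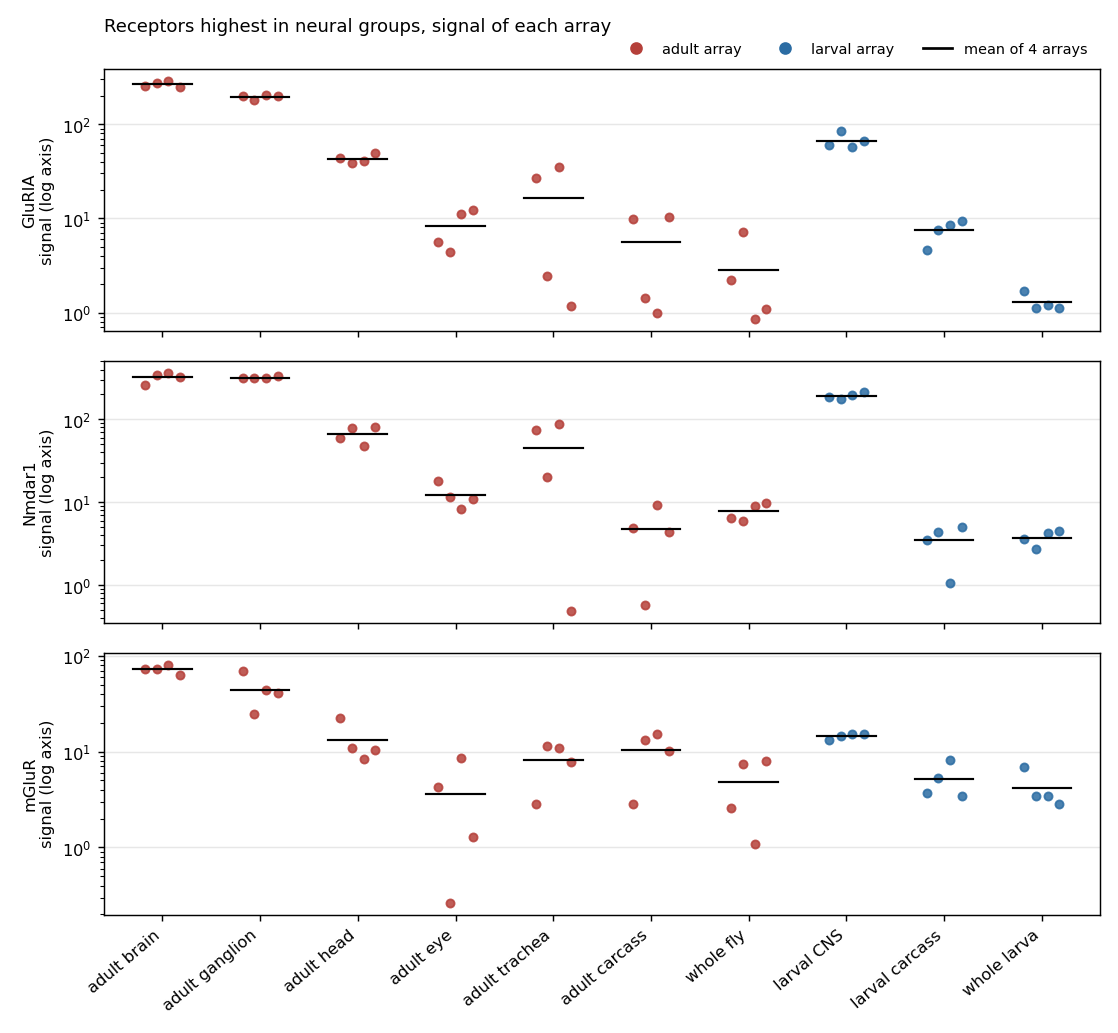
Signal of GluRIA, Nmdar1 and mGluR on each array (log axis), with adult groups in red, larval groups in blue and a bar at the mean of 4 arrays. Brain, ganglion and larval CNS stand highest for all 3 genes, head lies between brain and whole fly for GluRIA and Nmdar1, and the trachea arrays are split.

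In the larval CNS GluRIA and Nmdar1 again stood above the whole animal. GluRIA gave 59.9, 84.5, 57.3 and 66.6 in larval CNS, against 1.70, 1.12, 1.21 and 1.12 in whole larva. Nmdar1 gave 187, 175, 195 and 213 in larval CNS, against 3.61, 2.71, 4.19 and 4.44 in whole larva. Both were called higher, with log2 folds of 2.76 ± 0.11 and 3.88 ± 0.08, and no CNS array came near a whole-larva array. mGluR gave 13.3, 14.7, 15.2 and 15.3 in larval CNS, against 6.93, 3.43, 3.48 and 2.81 in whole larva; its log2 fold of 0.81 ± 0.10 fell short of 2-fold although the arrays did not overlap. In the other direction the muscle-type subunits GluRIIA, GluRIID and GluRIIE were lower in larval CNS than in whole larva, by log2 folds of -1.43, -2.01 and -2.07. Of all probe sets, 27.5% were called higher and 22.5% lower, with a median log2 fold of 0.25.

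Set against the larval CNS, the adult brain had more GluRIA, mGluR and GluRIIA, and no other member was called. GluRIA was higher by a log2 fold of 1.85 ± 0.11 (265 ± 17.3 in brain, 67.1 ± 12.3 in larval CNS) and mGluR by 1.74 ± 0.08 (72.3 ± 7.11 in brain, 14.6 ± 0.90 in larval CNS). Nmdar1 was at 321 ± 43.4 in brain and 192 ± 15.7 in larval CNS; the log2 fold of 0.70 ± 0.11 (95% interval 0.47 to 0.94) was below 2-fold, and it was 0.70 ± 0.08 in the ganglion. Over the same arrays 6 of the 9 neuron markers were called higher in brain than in larval CNS, with a median log2 fold of 1.63, against a median of 0.01 over all probe sets; the part of neuron content in these folds was not tested. The ganglion gave log2 folds of 1.43 for GluRIA, 1.38 for GluRIIA and 1.08 for mGluR over larval CNS, and the call for mGluR was lost without ganglion array 1 (0.89). In each of the 2 comparisons 3 of 9 members were called higher and none lower, while 13.8% of all probe sets were called higher in brain and 12.7% in ganglion.

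GluRIIA, known mainly as a muscle subunit, was the one of its family with a clear adult brain signal. It gave 37.6, 37.8, 39.5 and 34.03 in adult brain and 36.4, 24.5, 27.7 and 19.99 in ganglion, against 4.03, 2.85, 5.40 and 4.04 in larval CNS. Every adult array lay above every larval one, and the log2 fold of brain over larval CNS was 1.75 ± 0.08 (adjusted p = 1.7e-08). GluRIIB, GluRIID and GluRIIE were not called: their brain means were 10.6, 7.49 and 8.61, and their larval CNS means 12.2, 6.21 and 7.25. The muscle markers shared by both stages summed to 225 to 248 in brain and 113 to 150 in larval CNS, with 1 of 7 called higher in brain, and to 374 to 528 in ganglion, with 4 of 7 called higher; their part in the GluRIIA result was not tested. On the same probe set GluRIIA gave 2.79, 15.3, 22.2 and 22.1 in thoracic muscle, all below the 4 brain arrays. Over whole fly the brain's log2 fold for GluRIIA was 0.84 ± 0.15, under 2-fold.

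The larval carcass, which holds the body wall muscles, carried the highest or second highest mean signal of all 34 groups for each of GluRIIA, GluRIIB, GluRIID and GluRIIE. GluRIID, one of the essential subunits, gave 325, 294, 302 and 287 in larval carcass, against 50.9, 52.0, 60.5 and 58.5 in whole larva. GluRIIE, the other essential subunit measured, gave 181, 209, 199 and 236 in larval carcass, against 49.1, 67.3, 68.4 and 65.4 in whole larva. For both genes the lowest carcass array lay well above the highest whole-larva array. GluRIIA, whose receptors pass more current, gave 164, 122, 122 and 121 in larval carcass, against 30.8, 29.1, 25.9 and 26.1 in whole larva. GluRIIB, whose receptors desensitise faster, gave 47.0, 83.0, 102 and 61.4 in larval carcass, against 20.3, 12.4, 19.0 and 17.5 in whole larva. GluRIIB varied most over the carcass arrays, and its groups still did not overlap. The log2 folds over whole larva were 2.25 ± 0.10 for GluRIID, 1.90 ± 0.12 for GluRIIA, 1.58 ± 0.13 for GluRIIE and 1.57 ± 0.20 for GluRIIB, so that 4 of 7 members tested were called higher, while 7.21% of all probe sets were. The median log2 fold was 0.11 over all probe sets and 1.16 over the 7 shared muscle markers. GluRIID and GluRIIE lie next to each other in the RefSeq gene table with overlapping gene bodies. Whether either probe set reads transcripts of both genes was not tested. GluRIIA and GluRIIB are neighbours without overlap.

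Against the larval CNS the carcass separated the muscle subunits from the neural ones. GluRIID, GluRIIE, GluRIIA and GluRIIB were higher in carcass by log2 folds of 4.27 ± 0.10, 3.65 ± 0.12, 3.33 ± 0.12 and 1.87 ± 0.18, and Nmdar1 and GluRIA were lower, with log2 folds of -3.91 ± 0.12 and -2.14 ± 0.14. In all, 4 of 9 members were called higher and 2 lower, against 13.8% and 24.0% of all probe sets. mGluR, at 5.15 ± 2.16 in carcass and 14.6 ± 0.90 in CNS, had a log2 fold of -0.71 that was not called. GluRIA gave 4.598, 7.44, 8.59 and 9.27 in larval carcass, all above the whole-larva arrays, and was not called over whole larva. Among the 14 tested genes of the glutamate pathway list, 4 were higher and 5 lower in carcass; the glutamate-consuming GABA enzyme Gad1 had a log2 fold of -6.50, the transporter Eaat2 -4.71 and, from the list of postsynaptic partners, the neuroligin Nlg2 -3.98, while the aminotransferases Got2 and Got1 had 2.16 and 1.44 and the glutamine synthetase Gs1 1.37.

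**Figure D2:**
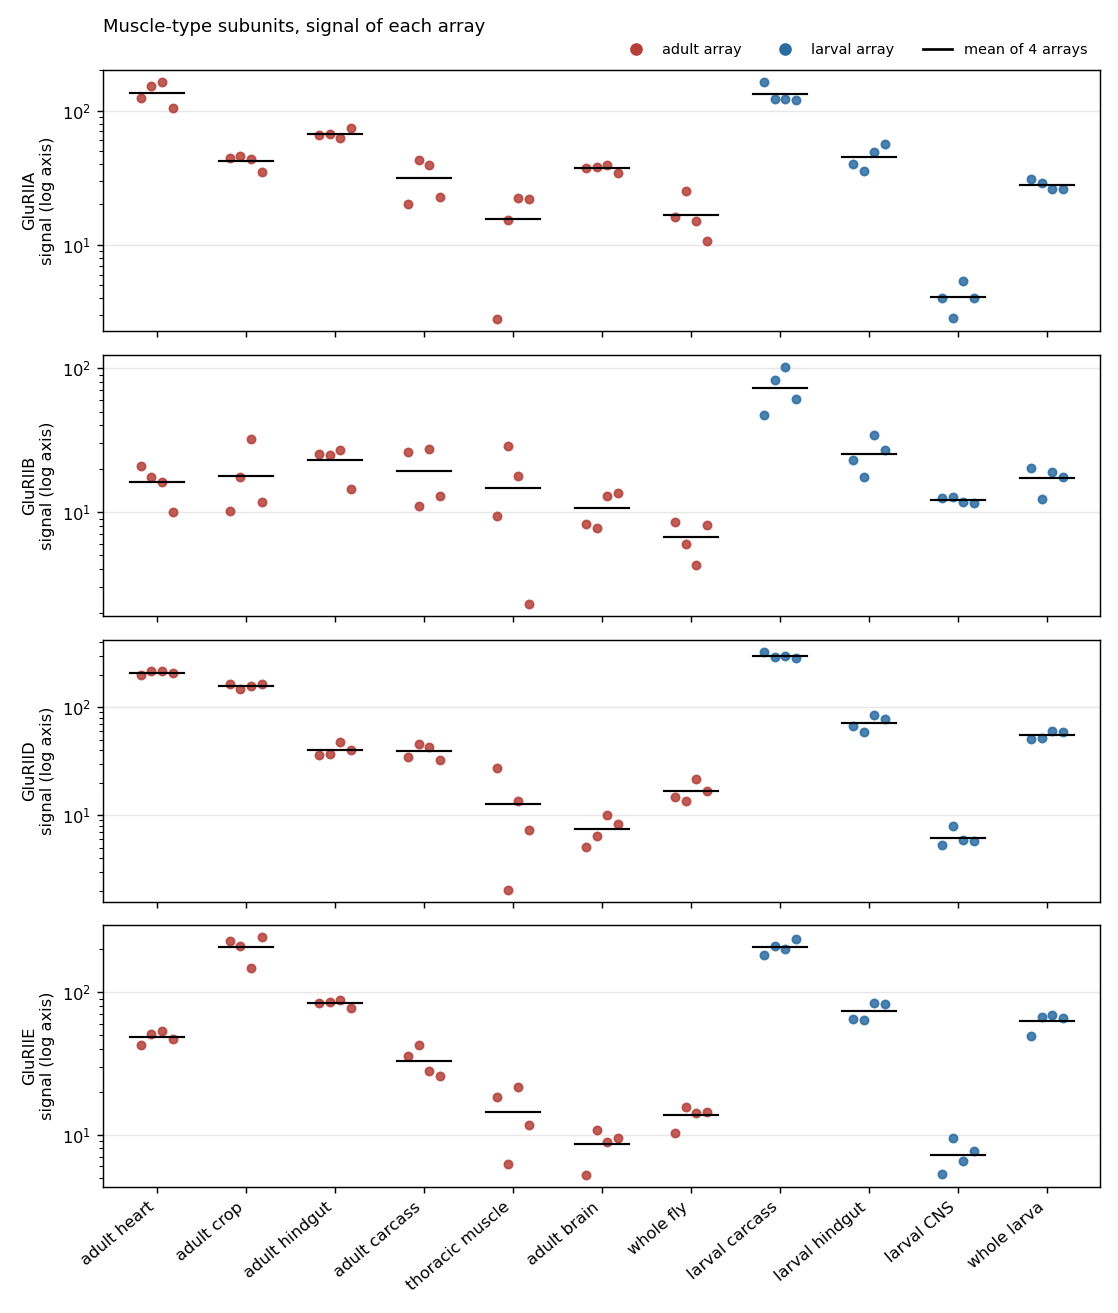
Signal of the 4 muscle-type subunits on each array (log axis), with adult groups in red, larval groups in blue and a bar at the mean of 4 arrays. Larval carcass is high for all 4 genes, heart for GluRIIA and GluRIID, crop for GluRIID and GluRIIE, and adult carcass and thoracic muscle lie well below the larval carcass for every gene.

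The adult carcass gave far lower signals of these subunits than the larval carcass. GluRIID gave 34.5, 45.9, 43.2 and 32.5 in adult carcass, GluRIIE 35.7, 42.8, 27.7 and 25.9, and GluRIIA 20.3, 43.1, 39.5 and 22.8, all below every larval carcass array. GluRIIB gave 26.3, 11.1, 27.4 and 12.9 in adult carcass, also below all larval carcass arrays, with its arrays split into a higher and a lower pair. The log2 folds of adult over larval carcass were -2.68 ± 0.13 for GluRIID, -2.34 ± 0.16 for GluRIIE, -1.81 ± 0.21 for GluRIIA and -1.51 ± 0.26 for GluRIIB. These 4 were the calls among 8 members tested, all lower, against 11.8% of all probe sets called lower. Of the muscle markers shared by both stages 3 of 7 were called lower, with a median log2 fold of -0.75; the 2 larval muscle markers were both lower, with a median of -2.98, and all 5 flight and leg muscle markers were higher, with a median of 6.96 and sums of 9401 to 15103 in adult carcass (2967 to 3790 in whole fly). The part of muscle content and muscle type in the subunits' folds was not tested.

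Of 11 glutamate pathway genes tested, 5 were higher and 2 lower in adult than in larval carcass, where 1651 of 12696 probe sets were called higher and 1495 lower. The kainate-type genes clumsy and Grik had log2 folds of 3.74 (137 in adult carcass, 0.865 in larval carcass) and 2.88 (77.4 in adult carcass, 1.80 in larval carcass), and the transporter Eaat2 had 3.09. Gs1 and the glutamate dehydrogenase Gdh fell, with log2 folds of -1.18 and -1.04, as did the kinase Pak of the partner list, with -1.14.

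Against the whole fly the adult carcass showed a modest excess of the same subunits. GluRIID, GluRIIE, GluRIIB and GluRIIA had log2 folds of 0.88, 0.85, 0.77 and 0.61, each with an adjusted p under 0.05 and none reaching 2-fold, so 0 of 7 members were called by limma while 38.5% of all probe sets were called in either direction. All 7 shared muscle markers were called higher there, with a median log2 fold of 1.36. Under quantile normalization GluRIID (1.33) and GluRIIE (1.14) passed, and with a pseudocount of 2% of the trimmed mean GluRIID, GluRIIE and GluRIIB did.

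Thoracic muscle, most of it flight muscle, had little signal for any muscle-type subunit. GluRIID gave 27.6, 2.05, 13.4 and 7.31 in thoracic muscle and GluRIIE 18.4, 6.27, 21.5 and 11.6, both overlapping the whole fly and all far below the larval carcass. Over larval carcass the log2 folds were -3.91 ± 0.33 for GluRIID, -3.18 ± 0.26 for GluRIIE, -2.55 ± 0.32 for GluRIIA and -1.84 ± 0.38 for GluRIIB, and without array 4 they were -3.82, -3.14, -2.69 and -1.55. With all arrays 4 of 7 members tested were called lower and 1 higher, against 14.5% and 11.3% of all probe sets; without array 4 the counts were the same, against 19.1% and 19.8%. Over whole fly 0 of 6 members tested were called, against 37.2% of all probe sets in either direction. Without array 4, GluRIB (1.00) and Nmdar2 (1.15) passed there, 2 of 6 members against 16.8% of all probe sets called higher; without whole-fly array 2 or 4, Nmdar2 alone did (1.01 and 1.09).

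Nmdar2 had its highest mean, 32.1 (36.7 without array 4), in thoracic muscle and not in the nervous system. The next mean was 19.5 (21.3 without array 2), in redone mated spermatheca. In ganglion Nmdar2 gave 27.9, 13.4, 12.6 and 7.00. Thoracic muscle array 4 lay within the range of both groups and the other thoracic muscle arrays lay above it. Neither group was compared with thoracic muscle by limma. Nmdar2 gave 31.9, 32.8, 45.4 and 18.3 in thoracic muscle, against 8.84, 7.44, 7.94 and 10.7 in brain. Thoracic muscle and brain did not overlap, and the log2 fold of 1.13 ± 0.23 was called. It was 1.31 without array 4, 0.99 and not called without array 3, and 0.90 and not called when both probe sets were averaged. In the same comparison GluRIA, Nmdar1 and mGluR were lower in thoracic muscle than in brain, with log2 folds of -4.31, -4.80 and -2.28 (-4.24, -4.86 and -2.10 without array 4), so that 1 of 9 members was called higher and 3 lower, against 13.0% and 22.0% of all probe sets. Without array 4 GluRIIA was also called lower, so that the counts were 1 higher and 4 lower, against 19.4% and 24.6%. Over larval carcass Nmdar2 had a log2 fold of 1.11 in thoracic muscle (1.29 without array 4), lost in the same 2 ways (0.97 and 0.81). The second Nmdar2 probe set gave 1.94, 18.1, 15.6 and 4.93 in thoracic muscle, against 5.43, 2.24, 0.42 and 0.29 in brain, 2 arrays within or near the brain's range and 2 above it. The 40th percentile of all probe sets was 11.3 in thoracic muscle and 11.4 in adult salivary gland. It was 5.67 in brain, 6.24 in larval carcass and 11.8 in whole fly. The part of background in the Nmdar2 and GluRIB signals was not tested. GluRIB had its highest group means, 35.2 and 28.8 (32.3 without array 4), in adult salivary gland and thoracic muscle. In brain it gave 18.5, 15.7, 19.5 and 16.5, against 10.9, 12.1, 9.61 and 10.5 in whole fly, with a log2 fold under 2-fold. The second probe set of GluRIB passed the 40th percentile in 2 of 34 groups, as did that of Nmdar2.

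The adult heart had the highest group mean of GluRIIA and the second highest of GluRIID. GluRIIA gave 124, 151, 163 and 104 in heart, against 16.1, 25.4, 15.0 and 10.6 in whole fly. GluRIID gave 197, 217, 215 and 208 in heart, against 14.7, 13.5, 21.6 and 16.9 in whole fly. GluRIIE gave 42.6, 50.7, 53.2 and 46.8 in heart, against 10.3, 15.6, 14.1 and 14.5 in whole fly. No heart array of these 3 genes came near a whole-fly array, and the log2 folds were 2.45 ± 0.18, 3.05 ± 0.12 and 1.31 ± 0.11. They were the 3 calls among 6 members tested, against 10.5% of all probe sets called higher and a median log2 fold of -0.36. GluRIIB, at 16.2 ± 4.57 in heart and 6.74 ± 1.99 in whole fly, had a log2 fold of 0.64 that was not called. Of the shared muscle markers 2 of 7 were higher in heart, with a median log2 fold of 0.81, and all 5 flight and leg markers were lower, with a median of -5.25. The 6 hemocyte markers were all higher in heart, with a median log2 fold of 3.73 and sums of 3740 to 4075 in heart and 287 to 401 in whole fly. Of 5 fat body markers 4 were higher, with a median of 1.46 and sums of 9999 to 13336 in heart and 3998 to 4748 in whole fly; the part of these cells in the heart results was not tested. Among the partner genes the BMP receptor wit, the scaffold Grip and the scaffold dlg1 were higher, with log2 folds of 2.35, 1.97 and 1.52, while Gad1, Eaat2 and Nlg2 had -4.19, -2.93 and -1.30.

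Over the adult carcass the heart was higher for GluRIIA (log2 fold 1.84 ± 0.21) and GluRIID (2.17 ± 0.12), and the log2 fold for GluRIIE, 0.45 ± 0.14, was below 2-fold. These were 2 of 7 members tested, against 4.37% of all probe sets called higher. Of the shared muscle markers 2 of 7 were lower in heart than in carcass, with a median log2 fold of -0.86, and the part of muscle content was not tested. The 6 hemocyte markers were all higher, with a median of 1.84 (sums of 1054 to 1154 in carcass), and 1 of 5 fat body markers was lower; their part was not tested.

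Crop and hindgut, visceral organs wrapped in muscle, had the same subunits in other proportions. GluRIIE gave 228, 209, 148 and 242 in crop and 84.1, 85.05, 87.9 and 76.9 in hindgut. GluRIID gave 164, 148, 157 and 166 in crop and 36.1, 36.7, 47.3 and 40.5 in hindgut. Crop arrays lay above hindgut arrays throughout, while for GluRIIA the order was turned, with 44.6, 46.0, 43.3 and 34.9 in crop and 66.3, 66.6, 62.6 and 74.1 in hindgut. Over whole fly the crop was higher for GluRIIE (log2 fold 3.18 ± 0.15) and GluRIID (2.67 ± 0.11), 2 members against 12.2% of all probe sets, and the hindgut for GluRIIE (1.99 ± 0.10) and GluRIIA (1.56 ± 0.15), against 11.9%. All 7 shared muscle markers were higher in crop, with a median log2 fold of 1.86, and 3 of 7 in hindgut, with a median of 0.78.

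The comparison of crop with hindgut gave log2 folds of 1.76 ± 0.09 for GluRIID and 1.19 ± 0.14 for GluRIIE, 2 calls among 6 members tested against 5.97% of all probe sets higher, and -0.57 ± 0.09 for GluRIIA, which was not called; 4 of the 7 shared muscle markers were also higher in crop. Between heart and crop, GluRIIA was higher in heart, with a log2 fold of 1.47 ± 0.14, and GluRIIE lower, with -1.87 ± 0.15, both called, with 8.47% and 12.7% of all probe sets called higher and lower. In the same comparison 5 of 6 hemocyte markers and 5 of 5 fat body markers were higher in heart, with median log2 folds of 5.05 and 3.50, and their part was not tested. GluRIID, at 209 ± 8.75 in heart and 159 ± 8.03 in crop, had a log2 fold of 0.38 ± 0.09 (95% interval 0.19 to 0.57). Thus the pair of genes with overlapping bodies differed in their order over these organs: GluRIID was higher in heart than in crop on every array and GluRIIE lower on every array.

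Adult and larval hindgut both carried GluRIIA, GluRIID and GluRIIE. None of 6 members tested was called between adult and larval hindgut by limma, against 15.4% of all probe sets. The log2 folds of adult over larval hindgut were 0.50 ± 0.12 for GluRIIA (67.4 ± 4.83 in adult, 45.1 ± 9.46 in larva), -0.70 ± 0.12 for GluRIID (40.1 ± 5.18 in adult, 71.9 ± 10.99 in larva) and 0.16 ± 0.10 for GluRIIE (83.5 ± 4.66 in adult, 73.9 ± 10.7 in larva). Adjusted p was under 0.05 for GluRIIA, GluRIID and Nmdar2 and all 3 intervals stayed within 2-fold. The difference between the hindgut's and the carcass's stage effects was not tested.

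The difference of stage effects was tested between brain and carcass. The log2 fold of brain over larval CNS minus that of adult over larval carcass was 3.56 ± 0.23 for GluRIIA, 2.78 ± 0.16 for GluRIID, 2.45 ± 0.19 for GluRIIE, 2.06 ± 0.26 for GluRIA, 1.39 ± 0.30 for GluRIIB and 1.35 ± 0.24 for mGluR, 6 calls among 9 members against 13.2% of all probe sets called higher. For GluRIIA both sides contributed, since it was higher in adult brain and lower in adult carcass than in the larval tissue; for GluRIID and GluRIIE only the carcass moved past the threshold. For Nmdar1 the difference was 0.60 ± 0.22 and was not called. In the whole animal GluRIID (16.7 ± 3.58 in fly, 55.5 ± 4.75 in larva) and GluRIIE (13.6 ± 2.28 in fly, 62.6 ± 9.05 in larva) were lower in the fly, with log2 folds of -1.30 and -1.61, 2 of 4 members tested against 11.3% of all probe sets called lower. GluRIIA and GluRIIB had log2 folds of -0.53 and -0.70, below 2-fold.

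**Figure D3:**
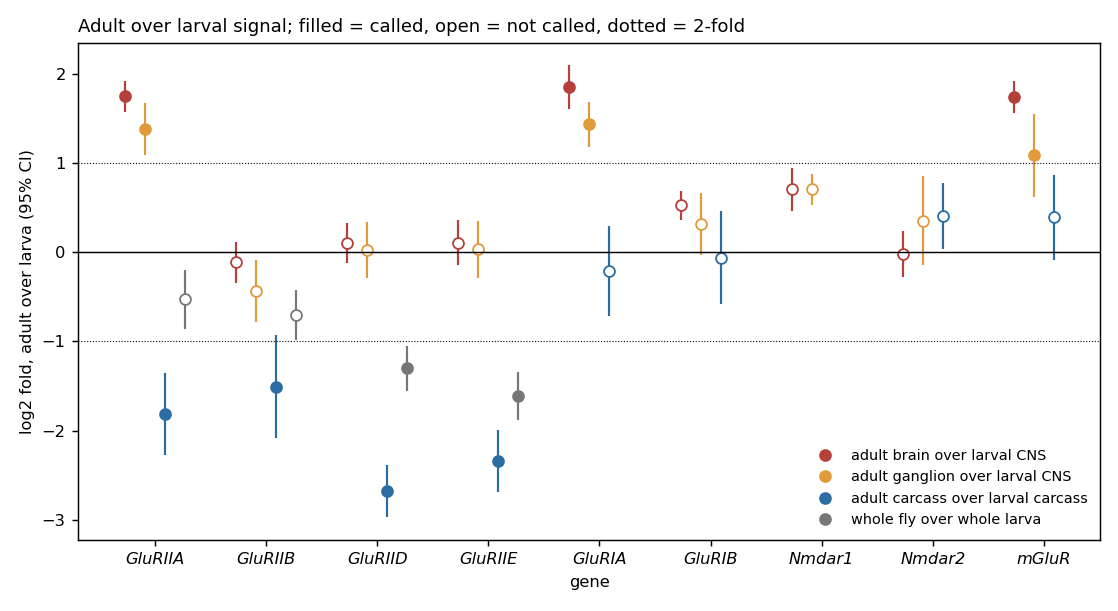
Log2 fold of adult over larval signal for each gene with its 95% interval, in brain, ganglion, carcass and whole animal; filled points were called, and genes below the filter are left out. GluRIIA, GluRIA and mGluR lie above the 2-fold line in brain and ganglion, and all 4 muscle-type subunits lie below it in carcass.

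Across the other 21 tissues, S2 cells included, set against the whole animal, 128 tests gave 10 calls higher, in 7 tissues, and 14 lower. Besides crop and hindgut, GluRIID was higher in accessory gland (log2 fold 1.18; 50.2 ± 6.08 in gland, 16.7 ± 3.58 in whole fly; 12.0% of all probe sets called higher) and GluRIIE in ejaculatory duct (1.01; 37.7 ± 5.22 in duct, 13.6 ± 2.28 in whole fly; 10.2%), an organ of males set against flies of both sexes. The accessory gland is an organ of males as well. Both organs are ensheathed by muscle, whose part in these calls was not tested. The 7 shared muscle markers summed to 4288 to 5048 in accessory gland, 4769 to 6496 in ejaculatory duct and 5148 to 6434 in whole fly. GluRIB (1.09) and GluRIIB (1.16) were higher in adult salivary gland, where 15.7% of all probe sets were, and GluRIIB in mated and virgin spermatheca (1.09, with overlapping arrays, and 1.02), where 11.6% and 11.1% were. GluRIIB gave 44.6, 20.8, 43.5 and 7.31 in mated and 22.3, 22.9, 29.2 and 20.8 in virgin spermatheca, and averaged 6.74 ± 1.99 in whole fly. Both spermatheca groups came from females alone and had 2 rounds of amplification, against 1 in whole fly, so that tissue, sex and amplification cannot be told apart. In the redone mated spermatheca, with 1 round on arrays 1 to 3 and 2 on array 4, GluRIIB averaged 9.25 ± 5.36 (7.32 ± 4.55 without array 2) and was not called. Of the 14 lower calls, 13 fell in larval fat body, salivary gland, trachea, midgut and tubule, for GluRIID and GluRIIE in all 5 and for GluRIIA in the first 3, with log2 folds from -1.14 to -2.35. In those tissues 17.5%, 23.6%, 19.7%, 18.2% and 23.4% of all probe sets were lower than in whole larva. The remaining one was GluRIID in S2 cells, an embryonic cell line (-1.02; 29.3% lower). No member was called in adult fat body, midgut, ovary, redone mated spermatheca, testis, trachea or wing, or in larval hindgut, where 41.4%, 41.3%, 42.0%, 34.2%, 60.3%, 39.4%, 41.2% and 23.5% of all probe sets, in that order, were called in either direction. Without array 2 of the redone mated spermatheca, 0 of 7 members tested were called there, against 42.1% of all probe sets.

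In the Malpighian tubule GluRIIA differed between larval stages. It gave 61.4, 44.3, 61.2 and 59.0 in wandering larvae, against 24.3, 14.3, 19.9 and 20.8 in feeding larvae. All wandering arrays lay above all feeding ones, and the log2 fold of 1.16 ± 0.13 was called, 1 of 6 members tested against 3.40% of all probe sets higher; it was 0.96 and not called under quantile normalization. None of the 7 shared muscle markers was called there by limma, with a median log2 fold of -0.14.

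In adult trachea GluRIA gave 27.1, 2.46, 35.1 and 1.17, and Nmdar1 gave 73.9, 20.4, 88.1 and 0.49. The arrays high in both were those high in neuron markers, arrays 1 and 3, and array 4 was at the bottom of all 3; neither gene was called over whole fly with all 4 arrays. Without array 4, a choice made after the values were seen, both were called, with log2 folds of 1.13 (adjusted p = 0.034) and 1.83 (adjusted p = 0.0017). The part of neural tissue in these signals was not tested.

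**Figure D4:**
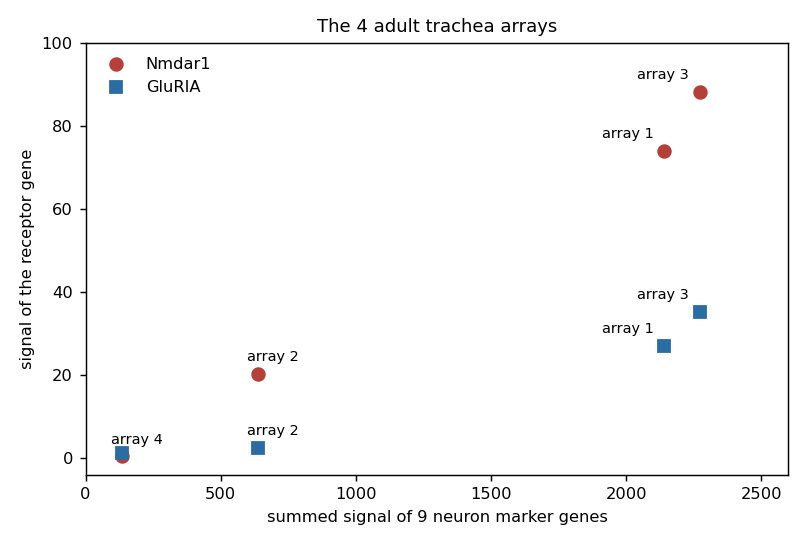
Signal of Nmdar1 and GluRIA on the 4 adult trachea arrays against the summed signal of 9 neuron markers on the same array. Arrays 1 and 3, with marker sums of 2141 and 2272, have the highest receptor signals, and array 4, with 134, has the lowest.

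**Figure D5:**
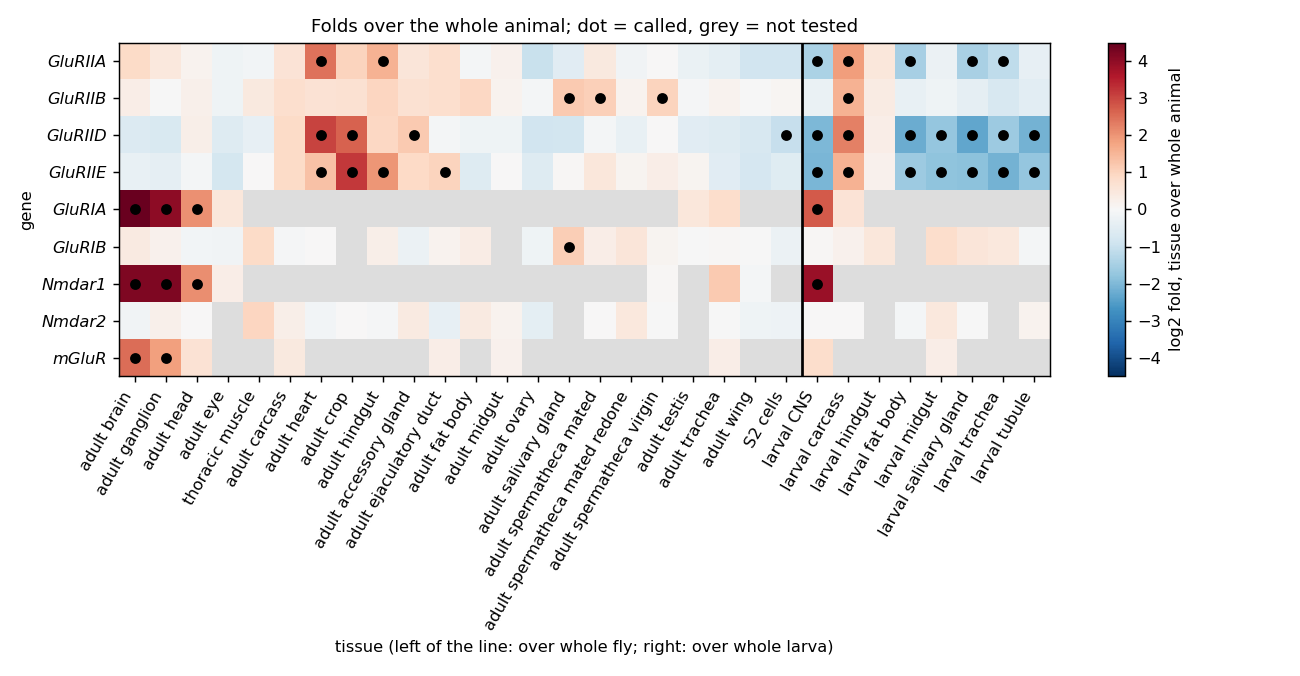
Log2 fold over the whole animal for the 9 genes (down) in each tissue (across), on a blue to red scale; a dot marks a call, grey was below the filter, and the line divides adult tissues and S2 cells from larval tissues. GluRIA and Nmdar1 are red in brain, ganglion and larval CNS and mGluR in brain and ganglion. GluRIIA, GluRIID and GluRIIE are called higher in heart and larval carcass, GluRIID and GluRIIE in crop, and GluRIIA and GluRIIE in adult hindgut.

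The members' patterns over the 34 group means fell along the same lines. They are given as a description, over groups that share the same arrays and, S2 cells apart, the same strain. Pearson's r of the log2 values was 0.96 for GluRIA with Nmdar1, 0.91 for GluRIA with mGluR, 0.89 for GluRIID with GluRIIE and 0.79 for GluRIIA with GluRIID. GluRIIA with GluRIIB, which are neighbours in the genome, gave 0.58. Among all other genes with a mean signal of at least 100 in 1 or more groups, those most like Nmdar1 were DIP-theta (0.98), CG13108 and PVRAP, and those most like GluRIA were CG12594 (0.98), Dh44-R1 and unc80. mGluR was most like kek3 (0.96), kairos and CG43737. GluRIID was most like CG8888 (0.93), CG40298 and Neurochondrin, GluRIIE most like Tsp42Eo (0.88), galene and the muscle troponin C gene TpnC73F, GluRIIA most like kon (0.73), Gyg and CG8888, and GluRIIB most like Tsp42Eo (0.76), uncNacbeta and CG11670. Nmdar2 was most like UQCR-14 (0.73), COX4 and Chchd2, and GluRIB most like ATPsynB (0.66), ATPsynF and CG14483, which include subunits of the mitochondrial respiratory chain and ATP synthase.

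Other genes of glutamate signalling were also called in the nervous system. Over whole fly 8 of 15 pathway genes were higher and 1 lower in brain, with a median log2 fold of 1.85, and 10 higher and 1 lower in ganglion, with a median of 1.64; over all named genes the medians were -0.33 and -0.31. In brain the glutamate-gated chloride channel GluClalpha and, from the partner list, Nlg2 and the neurexin Nrx-1 had log2 folds of 4.72, 4.604 and 4.38, and the one that fell was clumsy, -1.45. In ganglion Gad1, Nlg2 and GluClalpha had 4.23, 4.16 and 4.09, and clumsy -1.34. Between brain and ganglion 2 of 15 were called, the kainate-type receptors Ekar (1.42) and KaiR1D (1.34), both higher in brain. Over larval CNS the brain had 5 of 15 higher and none lower, and GluClalpha, Nrx-1 and the vesicular transporter VGlut had log2 folds of 2.18, 2.02 and 1.75, while Pak of the partner list had -1.59.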

How the data were processed

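Labelled RNA was hybridised to 1 single-colour Affymetrix array per sample, per the labels. The authors deposited 1 table of signal intensity for 18952 probe sets over the 34 groups of 4 arrays; its values are linear, all arrays share a trimmed mean close to 100, and the software that made them is not given in the sources used here. The 183 control probe sets were left out. Of the 18769 kept, 13646 carried 1 gene symbol in the platform annotation, 402 several, 1 was listed without a symbol and 4720 were not listed. Each array was scaled to the common mean over probe sets, with 2% trimmed at each end, and log2(signal + 10), a pseudocount of 10% of that mean, entered linear models (limma 3.58.1, R 4.3.3, with moderated variances and Benjamini-Hochberg adjustment over all probe sets tested), 2 groups at a time, after a filter at the 40th percentile; no paired block was used. Tables were handled with Python 3.11.15. The scripts were tested on simulated data. The number of arrays, 4 a group, limits the precision.

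The members, gene lists and comparisons were chosen with earlier results of these data known, and heart with carcass, heart with crop, crop with hindgut and both hindgut and tubule stage comparisons were chosen after the values were seen. Titles call the replicates biological in 27 groups and only replicates in 7; where nothing says that they came from separate animals, p-values measure the spread between samples, which may be technical. All members were named, and from the lists of glutamate pathway genes (15 measured of 20 entries, of which 3 were synonyms of others) and postsynaptic partners (13 of 18) up to 3 called genes with the largest rise and the largest fall in a comparison described. Same-numbered arrays did not deviate together (correlations -0.15 to 0.17, with all pairs above 0.1 in 0 of 17 comparisons). Alternatives were no scaling, quantile normalization, pseudocounts of 2% and 40%, no filter or the 60th percentile, 1 fit of all groups, the mean of a gene's probe sets, a replicate block, and leaving out each array.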

Additional observations from a re-analysis of the deposited data

Results flagged for a closer look

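In 5 of the 57 sets of 4 arrays with a mean signal of at least 20, a single array stood apart by Dixon's test at its 95% critical value; chance alone marks about 1 in 20. GluRIA gave 181 on ganglion array 2, with the others at 201 to 202. GluRIIA gave 44.3 on wandering-larva tubule array 2, with the others at 59.0 to 61.4, and 164 on larval carcass array 1, with the others at 121 to 122. GluRIIB gave 14.4 on adult hindgut array 4, with the others at 24.8 to 26.9, and GluRIIE gave 49.1 on whole-larva array 1, with the others at 65.4 to 68.4.

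The stage effect differed between brain and carcass for 6 genes, by the interaction term: GluRIIA by 3.56, GluRIID by 2.78, GluRIIE by 2.45, GluRIA by 2.06, GluRIIB by 1.39 and mGluR by 1.35 on the log2 scale.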

How the results depend on the processing

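Of 60 single-gene calls and interaction results, none changed sign under any alternative run, and 43 kept their call outside the leave-one-out fits. A pseudocount of 40% ended 17 calls, quantile normalization 3 and the mean of all probe sets 2. Only some of the counts of called members that moved are listed here. At a pseudocount of 40% the listed counts do not cover all 17 ended calls, so calls were lost elsewhere too. With a pseudocount of 40% the count was 1 in head over whole fly, 1 in ganglion over larval CNS, 0 in whole fly over whole larva, 0 in wandering over feeding tubule, 1 in crop over hindgut and 3 for the higher calls in the other tissues. With a pseudocount of 2% it was 2 in eye, 2 in thoracic muscle and 3 in adult carcass over whole fly, 1 in adult over larval hindgut and 20 in the other tissues. Quantile normalization gave 2 in thoracic muscle, 2 in adult carcass, 0 in the tubule and 23 in the other tissues; it also raised the median log2 fold over all probe sets by 0.23 in brain and by up to 0.56 in heart over whole fly. Leaving out 1 array gave 0 to 2 calls in thoracic muscle over whole fly, 4 to 5 in thoracic muscle over brain and over larval carcass, and 2 to 3 in ganglion over larval CNS. The replicate numbers share no source in the labels, and with a replicate block brain over whole fly kept 3 calls and no other count or call changed. Weak signals limit what can be seen: folds of genes near 10 are shrunk by the pseudocount, so a missed call there does not show an equal level.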
